A study of Homo sapiens with 8 samples.

Results

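PRRX1, TWIST1, TWIST2, SNAI1, SNAI2, ZEB1, ZEB2, RUNX1 and RUNX2 are transcription factors known for driving or marking the mesenchymal state of cells. They were taken by name and family, as 9 of the 60659 genes in the table of read counts, by a rule that uses no measured value, although earlier results of these data were known. All 9 passed the filter on low counts in every comparison. RNA was sequenced from SK-N-SH, a human neuroblastoma cell line, in 4 groups of 2 biological replicates. All 8 libraries came from cells given 10 μM all-trans retinoic acid (ATRA) for 24 h. The parental cells with doxycycline (Dox) were the control of cells that carried Dox-inducible FLAG-tagged ZMYND8, also with Dox. Per the methods, those cells were selected with G418 after lentiviral transduction. The labels give parental cells as their control, so an empty vector was not part of that comparison. KD control cells were the control of cells with ZMYND8 knockdown, and the sources used here do not describe the knockdown construct for SK-N-SH.

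ZMYND8 is a chromatin reader that recognises modified histones and works with complexes that activate or repress transcription. The comparisons ask which genes respond to its gain or its loss under ATRA. As background, factors of the SNAI and ZEB families are zinc finger proteins that bind E-boxes and repress epithelial genes, CDH1 above all, and TWIST proteins are basic helix-loop-helix factors that act as dimers with E proteins. PRRX1 is a homeobox factor of limb and craniofacial mesenchyme. RUNX factors bind DNA as dimers with CBFB, and RUNX2 is the master factor of osteoblasts. Neuroblastoma cells occur in an adrenergic state, held by factors such as HAND2 and GATA3, and in a mesenchymal state, in which PRRX1 is a known driver. SK-N-SH is known to hold cells of both kinds.

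Counts on genes totalled 38316523 to 56256979 per library. ZMYND8 itself was at 34.6 TPM in both parental libraries and at 2140 and 2315 TPM with overexpression, where TPM is the count of a gene scaled for its exon length and for the size of the library. It was at 24.8 and 26.9 TPM in the KD control libraries and at 12.7 and 12.3 TPM with knockdown, so that the targeted gene followed the labels in direction. Its log2 fold change was 5.86 with overexpression and -0.94 with knockdown, the latter short of the threshold on fold change used below. The knockdown was thus partial, and the 2 manipulations differed widely in size. The labels call the cells epithelial, but CDH1, which defines epithelia, had 0 or 1 counts in 6 libraries and 12 and 8 with overexpression, while VIM had at least 45589 counts in every library. Of the markers of neuroblastic cells, HAND2, GATA3 and DBH were present and TH had 0 to 5 counts. The summed TPM of these 4 markers was 160.3 and 167 in the parental libraries, 536 and 597 with overexpression, 333 and 364 in the KD control and 259 and 272 with knockdown. The 5 markers of substrate-adherent mesenchymal cells, PRRX1 among them, summed to 4051 and 4438 TPM in the parental libraries, 1716 and 1729 with overexpression, 1607 and 1622 in the KD control and 1880 and 2069 with knockdown. The 2 control groups, parental and KD control, thus differed from each other in both sums. Single markers did not all follow the sums. CD44 was at 200 and 198 TPM in the parental libraries and at 206 and 196 in the KD control. In TPM with knockdown, PRRX1 was lower than in the KD control, VIM, COL1A1 and CD44 were higher and FN1 overlapped. In bulk RNA, fewer cells of a type and less RNA per cell cannot be told apart. The part of these marker levels in the results on the 9 factors was not tested.

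A gene is said to be called when its Benjamini-Hochberg adjusted p from edgeR's quasi-likelihood test was below 0.05, its log2 fold change was at least 1 in size and its mean normalized count was above 20. With ZMYND8 overexpression, 4 of the 9 factors were called, RUNX2, PRRX1 and RUNX1 lower and TWIST1 higher. Among all 20835 genes tested, 18.6% were called, 11.8% higher and 6.84% lower. At an adjusted p below 0.05 with any fold change, 7 of the 9 factors passed, beside 60.8% of all genes. With ZMYND8 knockdown, none of the 9 was called, beside 1.96% of 19789 genes. DESeq2 called none there either, and 5 of the 9 had an unadjusted p below 0.05, beside 36.1% of all genes. PRRX1 and SNAI2 passed the adjusted p alone in the knockdown, beside 24.3% of all genes. The median log2 fold change of the 9 factors was -0.47 with overexpression, beside 0.03 for all genes, and 0.06 with knockdown, beside -0.01.

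**Figure D1:**
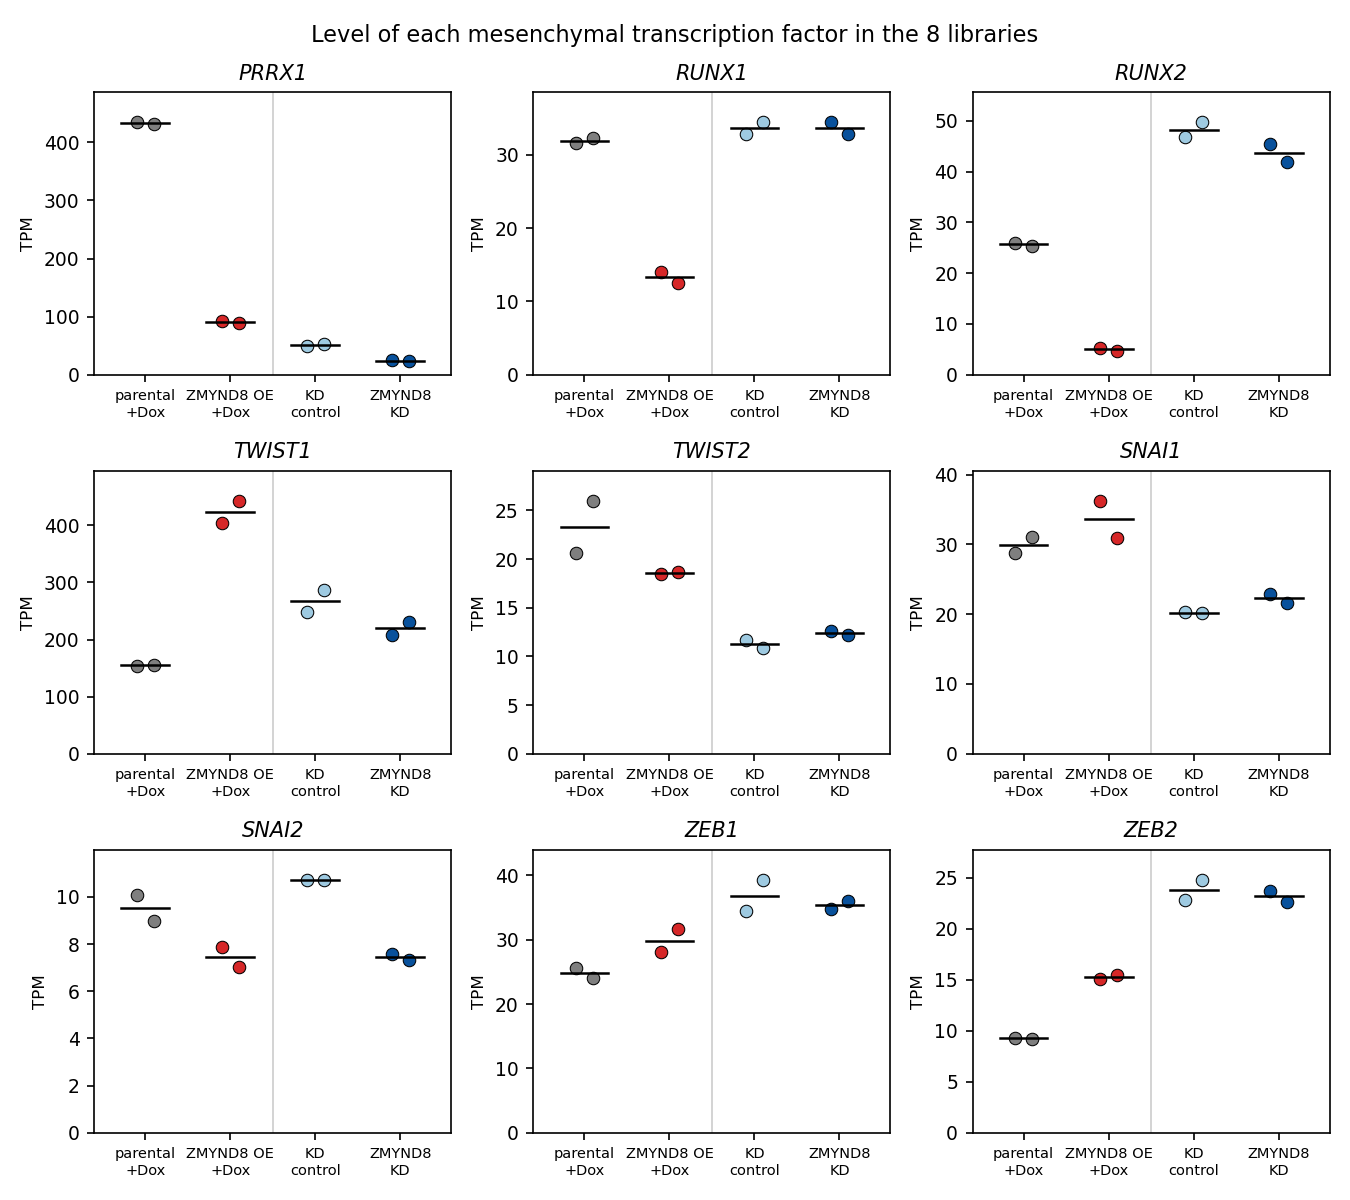
Level of each of the 9 transcription factors in TPM (linear axis from 0) in the 8 libraries, 1 point per library and a bar at the mean of each group of 2, with a grey line between the 2 experiments. PRRX1 is at 434 and 432 TPM in the parental libraries and between 23.3 and 92.5 TPM in the other 6, among them the KD control at 49.8 and 52.8. RUNX2 is lowest with ZMYND8 overexpression, at 5.29 and 4.68 TPM.

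PRRX1 (ENSG00000116132, chr1:170662728-170739421, plus strand, GRCh38) showed the widest span of levels, 18.0-fold between its highest and its lowest group mean. Its TPM was 434 and 432 in the parental libraries and 92.5 and 89.3 with ZMYND8 overexpression. In the knockdown experiment it was 49.8 and 52.8 in the KD control and 24.8 and 23.3 with ZMYND8 knockdown. No 2 of the 4 groups overlapped, and both manipulated groups lay below their own controls. With overexpression PRRX1 fell 5.26-fold, a log2 fold change of -2.39 with an SE of 0.06 and an adjusted p of 3.06e-10 by edgeR's quasi-likelihood test. With knockdown it was 1.97-fold lower than the KD control, a log2 fold change of -0.98 with an SE of 0.05 and an adjusted p of 8.13e-07. That value lies just short of the threshold on fold change, and leaving out replicate 1 of the knockdown gave a log2 fold change of -1.0046 that was called. ZMYND8 gain and ZMYND8 loss thus both went with a lower PRRX1 count. The drop was larger with overexpression, since the log2 fold changes differed by -1.42 (SE 0.08, edgeR adjusted p of 1.59e-09).

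RUNX2 (ENSG00000124813, chr6:45328157-45664349, plus strand) had a TPM of 26.0 and 25.3 in the parental libraries and of 5.29 and 4.68 with ZMYND8 overexpression. It stood at 46.8 and 49.7 in the KD control and at 45.3 and 41.9 with knockdown. The parental and overexpression libraries were far apart, while the KD control and knockdown libraries overlapped on normalized counts but not in TPM. The overexpression log2 fold change was -2.50 (SE 0.09), a 5.64-fold drop with an edgeR adjusted p of 2.15e-09 and the largest change among the 9 factors. In the knockdown the log2 fold change was -0.03, with a 95% interval from -0.14 to 0.08 and an edgeR adjusted p of 0.676. Without replicate 2 of the knockdown it was 0.0058. The interval leaves out a change of the size seen with overexpression in either direction.

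RUNX1 (ENSG00000159216, chr21:34787801-36004667, minus strand), best known from blood stem cells, was also lower with overexpression, by less than RUNX2. Its TPM was 31.6 and 32.2 in the parental libraries and 14.0 and 12.5 with overexpression. Both KD control libraries, at 32.9 and 34.4, and both knockdown libraries, at 34.4 and 32.8, overlapped each other in TPM. On normalized counts they did not, at 8521 and 8463 in the KD control and 9279 and 9081 with knockdown. RUNX1 was 2.64-fold lower with overexpression than in the parental cells, with a log2 fold change of -1.40 (SE 0.08) and an edgeR adjusted p of 6.48e-08. The knockdown gave 0.11 (95% interval from 0.01 to 0.22), with an edgeR adjusted p of 0.118. RUNX1 exceeded RUNX2 by 1.22 and 1.27 times in the parental libraries and by 2.65 and 2.68 times with overexpression, in TPM. In the knockdown experiment the order in TPM was the other way round, with RUNX1 at 0.69 and 0.70 times RUNX2 in the KD control. With knockdown RUNX1 was at 0.76 and 0.78 times RUNX2. In raw counts, not scaled for exon length, RUNX1 exceeded RUNX2 in every library.

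The promoters of the 3 factors that fell are shown here because these genes fell together with overexpression, though not in the other comparisons. RefSeq gives promoter windows (GRCh38.p14, 250 bases before to 50 after a start) for 6 of the 9 factors, 13 windows in all, with none for TWIST1, SNAI1 and SNAI2. RUNX genes are known to use a distal and a proximal promoter, and RUNX2 has a window at each. Capitals mark matches on either strand to CACCTG (the E-box that SNAI and ZEB factors bind), TGTGGT (the RUNX core), TGANTCA (AP-1), AGGTCA (a nuclear receptor half-site) and TATAAA (the TATA box). The 4 windows are as follows, 5′ to 3′ on the strand of the gene.
PRRX1, chr1:170663881-170664180, plus strand: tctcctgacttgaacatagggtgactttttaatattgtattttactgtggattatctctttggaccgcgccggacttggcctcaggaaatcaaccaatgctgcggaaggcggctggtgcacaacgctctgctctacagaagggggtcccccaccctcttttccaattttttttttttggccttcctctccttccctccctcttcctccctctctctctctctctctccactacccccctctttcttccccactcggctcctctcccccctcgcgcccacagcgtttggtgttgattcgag
RUNX1, chr21:34888650-34888949, minus strand: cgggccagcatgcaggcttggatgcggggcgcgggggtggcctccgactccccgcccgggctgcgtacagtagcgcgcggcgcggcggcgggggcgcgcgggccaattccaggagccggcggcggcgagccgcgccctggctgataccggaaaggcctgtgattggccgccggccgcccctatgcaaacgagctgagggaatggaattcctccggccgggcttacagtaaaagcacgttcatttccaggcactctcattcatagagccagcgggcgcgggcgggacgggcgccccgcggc
RUNX2 distal, chr6:45328080-45328379, plus strand: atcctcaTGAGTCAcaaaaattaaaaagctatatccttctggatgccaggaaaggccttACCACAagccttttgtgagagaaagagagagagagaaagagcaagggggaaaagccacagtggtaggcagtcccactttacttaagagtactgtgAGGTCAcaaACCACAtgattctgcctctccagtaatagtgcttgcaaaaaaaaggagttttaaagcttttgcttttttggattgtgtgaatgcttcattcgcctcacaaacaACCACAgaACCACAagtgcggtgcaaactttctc
RUNX2 proximal, chr6:45422025-45422324, plus strand: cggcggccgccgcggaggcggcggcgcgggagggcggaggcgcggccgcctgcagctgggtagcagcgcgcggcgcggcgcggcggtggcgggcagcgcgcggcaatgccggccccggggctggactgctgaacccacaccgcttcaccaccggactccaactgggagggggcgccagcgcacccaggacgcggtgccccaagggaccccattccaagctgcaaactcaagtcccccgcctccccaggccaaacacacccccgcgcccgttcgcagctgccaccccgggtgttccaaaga
The distal RUNX2 window held the RUNX core 4 times, each as ACCACA, its other strand, at -191, -87, 17 and 25 bases from the start. It also held 1 AP-1 match, TGAGTCA at -243, and 1 AGGTCA at -96. At least 1 RUNX core was found in 13.1% of the 35116 RefSeq windows of 300 bases, and 4 or more in 0.014%. The cut of 4 was not planned and equals the count in this window, 1 of 13 searched, so the 0.014% is not a test. The AP-1 motif was found in 7.71% of them and AGGTCA in 13.8%. The PRRX1, RUNX1 and proximal RUNX2 windows held none of the 5 marked motifs. Of the windows not shown, some of those of ZEB1, a factor called in neither experiment, held the RUNX core or CACCTG. Such a match is a stretch of letters, not a measured binding site. Since counts were per gene, they do not tell which promoter was used.

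TWIST1 (ENSG00000122691, chr7:19020991-19117636, minus strand) was the 1 factor called higher with overexpression. Its TPM was 153 and 156 in the parental libraries and 404 and 442 with ZMYND8 overexpression. The KD control stood at 248 and 286 and the knockdown at 208 and 232. The 4 groups did not overlap, the parental cells being lowest. TWIST1 rose 2.47-fold with overexpression, a log2 fold change of 1.31 (SE 0.05) with an edgeR adjusted p of 3.73e-09. When a trend over gene length and GC content was removed without recentring, which moved the median of all genes to -0.33, its log2 fold change was 0.78 and it was not called. With knockdown the log2 fold change was -0.16 (95% interval from -0.32 to -0.01) and the edgeR adjusted p was 0.114. Without replicate 2 of the knockdown the adjusted p was 0.00289, at a log2 fold change of -0.26, still below the threshold on fold change. An antisense gene covers 7.06% of the exon bases of TWIST1, and the strand setting of the counting was not given.

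TWIST2 (ENSG00000233608, chr2:238848032-238910534, plus strand), its close paralog of dermal and bone mesenchyme, was far less abundant. TWIST1 exceeded it by 6.02 to 7.45 times in the parental libraries and by 16.5 to 26.4 times in the other 6, in TPM. The TWIST2 levels were 20.6 and 25.9 TPM in the parental libraries and 18.4 and 18.7 with overexpression. They were 11.7 and 10.8 TPM in the KD control and 12.6 and 12.2 with knockdown. With overexpression the log2 fold change was -0.47 (SE 0.12, edgeR adjusted p of 0.00507), below the threshold on fold change. Without replicate 2 of the parental cells it was -0.32, with an adjusted p of 0.0505. With knockdown it was 0.25 (95% interval from -0.01 to 0.50), with an edgeR adjusted p of 0.148. With overexpression TWIST1 thus rose while TWIST2 was lower in both libraries.

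ZEB1 (ENSG00000148516, chr10:31318495-31529814, plus strand) and ZEB2 (ENSG00000169554, chr2:144364364-144521057, minus strand) repress epithelial genes and are also expressed in neural crest derivatives. For ZEB2 the TPM was 9.30 and 9.22 in the parental libraries and 15.1 and 15.5 with overexpression. It was 22.8 and 24.8 in the KD control and 23.7 and 22.7 with knockdown. Overexpression libraries were above the parental ones. The KD control and knockdown libraries overlapped in TPM, while on normalized counts both knockdown libraries lay above both controls. The ZEB2 log2 fold change with overexpression was 0.58 (SE 0.05, edgeR adjusted p of 3.37e-06), a difference too small to be called. With knockdown it was 0.08 (95% interval from -0.03 to 0.18), with an edgeR adjusted p of 0.297, and -0.0067 under the recentred length and GC trend.

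ZEB1 stood at 25.6 and 24.0 TPM in the parental libraries and at 28.02 and 31.66 with overexpression. Its log2 fold change on normalized counts was 0.12 (95% interval from -0.01 to 0.26, edgeR adjusted p of 0.111). The sign flipped to -0.07 when the length and GC trend was not recentred, and with recentring the value was 0.29, with an adjusted p of 0.00163. In the KD control ZEB1 was at 34.4 and 39.2 TPM and with knockdown at 34.7 and 36.1, a log2 fold change of 0.06 (95% interval from -0.07 to 0.18) that was -0.00059 without replicate 1 of the KD control. Between 4.58% and 4.97% of the exon bases of the ZEB genes are shared with a gene on the other strand. In TPM, ZEB2 was at 0.36 and 0.38 times ZEB1 in the parental libraries, 0.54 and 0.49 with overexpression and 0.63 to 0.68 in the knockdown experiment. In raw counts, not scaled for exon length, ZEB2 exceeded ZEB1 in every library.

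SNAI1 (ENSG00000124216, chr20:49982980-49988886, plus strand) showed no change past the test in either experiment. Its TPM was 28.7 and 31.1 in the parental libraries and 36.17 and 30.98 with overexpression, where the groups overlapped. The overexpression log2 fold change was 0.03, with a 95% interval from -0.21 to 0.28 and an edgeR adjusted p of 0.822, and its sign flipped under the length and GC trend in each form. The sign also flipped without replicate 1 of the parental cells (-0.013) and without replicate 1 of the overexpression (-0.14). The KD control libraries were at 20.3 and 20.1 TPM and the knockdown libraries at 22.9 and 21.7. That difference was 0.25 on the log2 scale (95% interval from 0.05 to 0.45), with an edgeR adjusted p of 0.0711.

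SNAI2 (ENSG00000019549, chr8:48917598-48921740, minus strand), the neural crest factor also called SLUG, was the least abundant or next to it in every group. The parental libraries held 10.1 and 8.98 TPM and the overexpression libraries 7.89 and 7.03. The KD control libraries both held 10.7 TPM and the knockdown libraries 7.60 and 7.33. It was lower than its own control in both experiments, as PRRX1 was, and the groups did not overlap in either. The log2 fold changes were -0.49 (SE 0.13, edgeR adjusted p of 0.00826) with overexpression and -0.41 (SE 0.10, edgeR adjusted p of 0.0119) with knockdown, both below the threshold on fold change. Without replicate 1 of the parental cells the first adjusted p was 0.0536, and without replicate 1 of the KD control the second was 0.0684. The effects differed by -0.09 (95% interval from -0.45 to 0.28), with an edgeR adjusted p of 0.715.

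**Figure D2:**
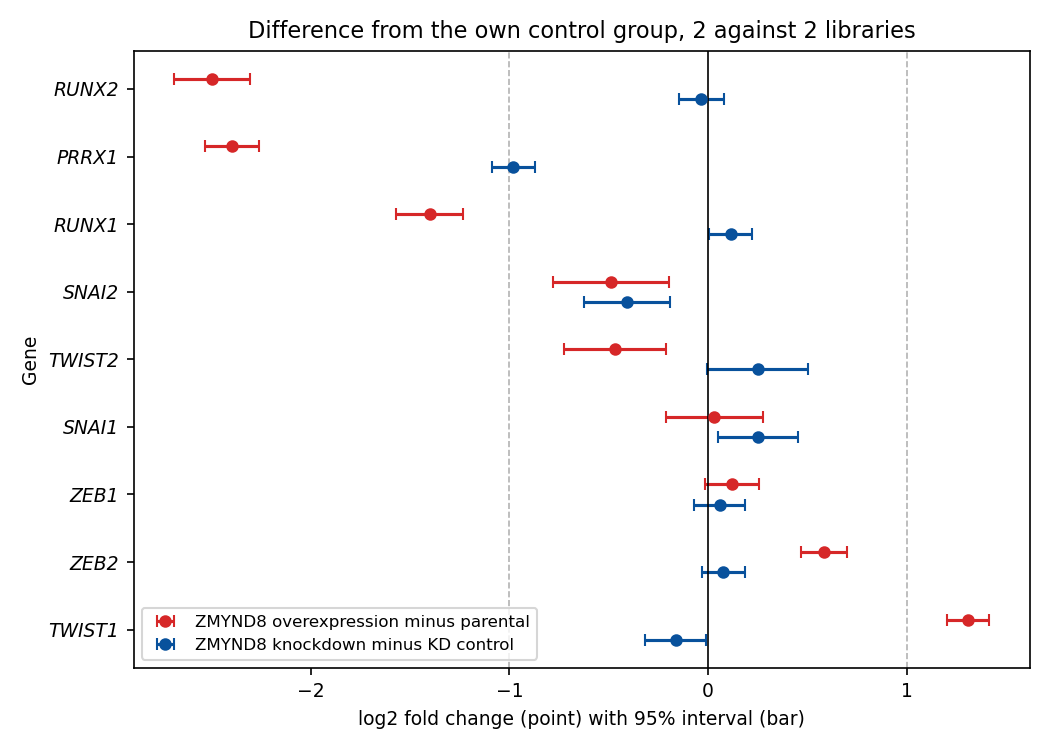
Log2 fold change of each factor against its own control group with its 95% interval, for ZMYND8 overexpression (red) and ZMYND8 knockdown (blue), 2 libraries against 2. Dashed lines mark the threshold of 1 on the log2 fold change. RUNX2, PRRX1 and RUNX1 lie left of -1 with overexpression and TWIST1 right of 1, and the knockdown values lie between -0.98 and 0.25.

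When the effects of overexpression and knockdown were compared directly, in 1 fit over the 8 libraries, 6 of the 9 factors differed at an adjusted p below 0.05, beside 49.0% of 22619 genes. The difference was negative for RUNX2 (-2.47), RUNX1 (-1.52), PRRX1 (-1.42) and TWIST2 (-0.72) and positive for TWIST1 (1.46) and ZEB2 (0.50), in log2. For SNAI1 (-0.23), SNAI2 (-0.09) and ZEB1 (0.06) it did not pass. Without replicate 1 of the overexpression the SNAI1 difference was -0.40, with an edgeR adjusted p of 0.0338. The sign of the ZEB1 difference turned under RLE, DESeq2 and no filter, and that of SNAI2 without replicate 1 of the parental cells or replicate 2 of the overexpression.

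The 2 control groups themselves differed in these factors. This comparison shares its parental libraries with the overexpression comparison and its KD control libraries with the knockdown comparison. Against the parental cells, the KD control cells had PRRX1 7.47-fold lower, a log2 difference of -2.90 (SE 0.06, edgeR adjusted p of 3.38e-14). ZEB2 was 2.91-fold higher in them, with a log2 difference of 1.54 (SE 0.05, edgeR adjusted p of 2.66e-12), and RUNX2 2.13-fold higher, with 1.09 (SE 0.06, edgeR adjusted p of 1.42e-09). These 3 were called, beside 20.3% of 22619 genes, 10.6% higher and 9.76% lower. The log2 differences of the other 6 ran from -0.86 for TWIST2 over -0.39 for SNAI1, 0.25 for RUNX1, 0.35 for SNAI2 and 0.75 for ZEB1 to 0.96 for TWIST1. Without replicate 1 of the KD control TWIST1 was called as well, at 1.02. The value of SNAI2 missed the adjusted p in DESeq2, at 0.0526, and without replicate 1 of the KD control or replicate 2 of the parental cells, at 0.0868 and 0.174. Dox, virus, day of culture and sequencing all differed or may have differed between these groups and cannot be told apart. The share of counts on mitochondrial genes was 0.11 to 0.17% in the overexpression experiment and 2.92 to 3.41% in the knockdown experiment, and its part was not tested.

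TPM scales each gene by its exon length, so that levels of different genes can be set side by side. That length is the union of all annotated exons of a gene, 26111 bases for ZEB2, 8650 for ZEB1, 15574 for RUNX1 and 8192 for RUNX2. Orders between genes rest on it, and in raw counts ZEB2 exceeded ZEB1 and RUNX1 exceeded RUNX2 in every library. By TPM, PRRX1 was the most abundant of the 9 factors in the parental cells and TWIST1 in the other 3 groups. PRRX1 exceeded TWIST1 by 2.83 and 2.77 times in the parental libraries. It was at 0.23 and 0.20 times TWIST1 with overexpression, 0.20 and 0.18 in the KD control and 0.12 and 0.10 with knockdown. In the parental cells RUNX1 and SNAI1 came next, at 31.9 and 29.9 TPM, followed by RUNX2, ZEB1 and TWIST2 at 25.7, 24.8 and 23.3 TPM, whose libraries overlapped from each to the next. SNAI2 and ZEB2, at 9.53 and 9.26 TPM, also overlapped. With overexpression RUNX2 moved to the last place, at 4.98 TPM, behind SNAI2 at 7.46. In the KD control RUNX2 took the third place, at 48.3 TPM, just below PRRX1 at 51.3. With knockdown PRRX1 came after TWIST1, RUNX2, ZEB1 and RUNX1, at 24.1 TPM, and its libraries overlapped those of ZEB2.

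**Figure D3:**
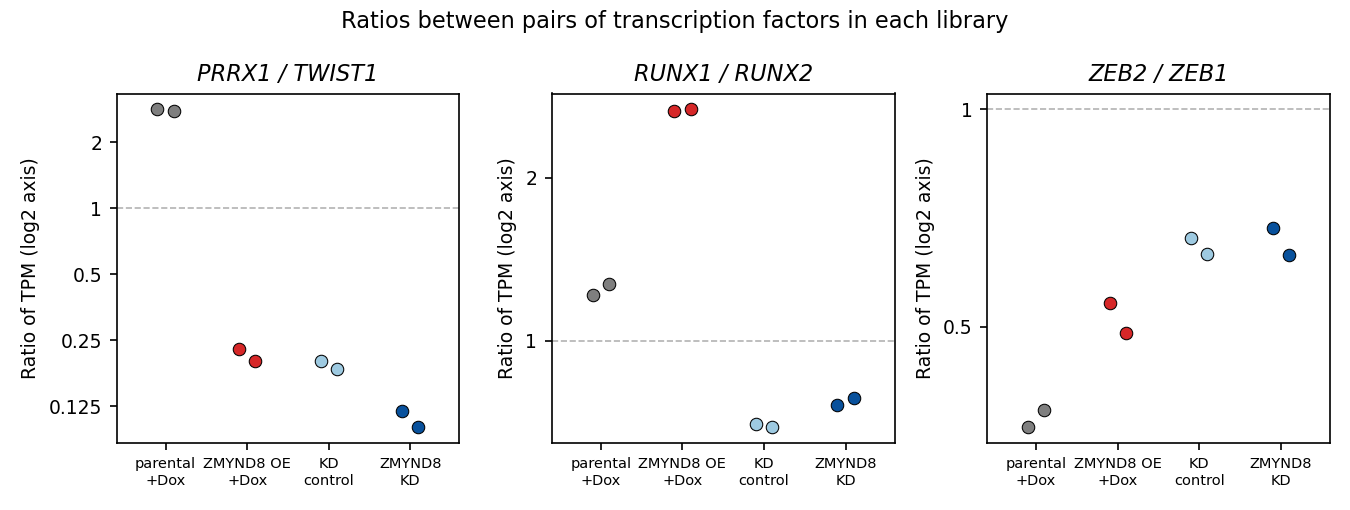
Ratio of the TPM of PRRX1 to TWIST1, RUNX1 to RUNX2 and ZEB2 to ZEB1 in each of the 8 libraries, on log2 axes with a dashed line at 1. PRRX1 exceeds TWIST1 in the 2 parental libraries alone, RUNX1 exceeds RUNX2 in the overexpression experiment alone, and ZEB2 stays below ZEB1 in each library. These orders are those of TPM and rest on the exon length used for each gene.

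Of 13 partners and paralogs of these factors tested with overexpression, 1 was called higher and none lower, beside 18.6% of all genes called, and edgeR and DESeq2 gave the same counts. At an adjusted p below 0.05 with any fold change 9 of the 13 passed, beside 60.8% of all genes, and 10 had an unadjusted p below 0.05, beside 64.3% of all genes. The called gene was PRRX2, the paralog of PRRX1, which rose from 89.2 ± 4.0 to 344 ± 35 normalized counts (SD, n = 2), a log2 fold change of 1.95 with an edgeR adjusted p of 1.08e-06. PRRX2 thus moved against PRRX1. CBFB, the RUNX partner, had a log2 fold change of -0.66 (edgeR adjusted p of 6.24e-06) with overexpression and of 0.43 (edgeR adjusted p of 1.62e-04) with knockdown. The E proteins TCF3, TCF4 and TCF12, the partners of TWIST, were at 0.39, -0.21 and -0.19 with overexpression. CBFB and the E proteins are named after their values were seen. In the knockdown none of the 11 tested was called by edgeR or DESeq2, and 7 had an unadjusted p below 0.05, beside 36.1% of all genes in this and the following counts for the knockdown.

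Other factors linked to the mesenchymal state of neuroblastoma were mostly lower with overexpression. Of 20 tested, 12 were called lower and 1, EGR3, higher (2.17, named after its value was seen), with a median log2 fold change of -1.33. Among all genes 6.84% were called lower and 11.8% higher, shares that also stand beside the overexpression counts of the following lists. The largest decreases were those of ZFP36L1, an RNA-binding protein that destabilises mRNAs, at -2.14, of IFI16, a DNA sensor, at -1.96, and of FOSL1, an AP-1 subunit, at -1.75. FOSL1 went from 1662 ± 54 to 489 ± 110 normalized counts (SD, n = 2), and its edgeR adjusted p was 4.08e-07. With knockdown its log2 fold change was 0.67 (edgeR adjusted p of 2.33e-05), below the threshold. In the knockdown none of 20 was called by edgeR or DESeq2, 13 had an unadjusted p below 0.05 and the median was 0.14.

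Genes that make up the mesenchymal phenotype, such as matrix proteins and their receptors, fell with overexpression in 23 of 30 cases and none was called higher, in DESeq2 as in edgeR. At any fold change 29 of the 30 had an adjusted p below 0.05, beside 60.8% of all genes. COL6A3 fell most, from 10151 ± 700 to 406 ± 62 normalized counts (SD, n = 2), a log2 fold change of -4.64 with an edgeR adjusted p of 7.13e-11. COL5A2, a fibrillar collagen, was at -3.29 and LUM, a matrix proteoglycan, at -2.63, and the median of the list was -1.56. With knockdown COL6A3 rose (1.24, edgeR adjusted p of 2.43e-06) and POSTN, a matrix protein, fell (-1.51, edgeR adjusted p of 9.04e-05), and the median was 0.31. At an adjusted p below 0.05 with any fold change 17 of the 30 were higher and 3 lower with knockdown, beside 24.3% of all genes in either direction. Known bone targets of RUNX2 were split with overexpression, 2 of 4 tested being called lower and 1 higher. Below the abundance asked of named genes, MMP13 went from 86 and 84 counts to 3 and 1, and ALPL was at 1.73, given after their values were seen. Of the called genes SPP1, or osteopontin, fell from 1015 ± 42 to 94.8 ± 2.8 normalized counts (SD, n = 2), a log2 fold change of -3.42 with an edgeR adjusted p of 1.43e-09. In the knockdown none of 5 was called by edgeR or DESeq2, and 1 had an unadjusted p below 0.05.

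Epithelial genes, which SNAI and ZEB factors are known to repress, did not move one way with overexpression. Of 18 tested, 4 were called higher and 3 lower. TJP3, a tight junction protein, rose from 14.4 ± 1.9 to 190 ± 20 normalized counts (SD, n = 2), a log2 fold change of 3.72 with an edgeR adjusted p of 2.58e-07, and LLGL2, a polarity protein, rose by 1.13. The keratins KRT8 and KRT18 fell by 1.81 and 1.15 on the log2 scale. The other called genes, named after their values were seen, were CDH3 and GRHL1 (1.25), both higher, and KRT19 (-2.31). The median of the 18 was 0.27. CDH3 and DSP had no counts in the parental libraries. With both at the lower bound that 3 counts per parental library allow, the median was again 0.27, and over the other 16 genes, an alternative chosen after seeing the data, it was -0.21. With knockdown none of 11 was called by edgeR or DESeq2, 4 had an unadjusted p below 0.05 and the median was 0.02.

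Adrenergic factors, the counterpart of the mesenchymal ones, were mostly higher with overexpression, 8 of 14 tested being called higher and 1 lower, with a median log2 fold change of 1.21. TFAP2B rose from 282 and 365 counts in the parental cells to 3895 and 3902 (log2 fold change of 3.56, edgeR adjusted p of 7.06e-10). HAND1 was at 4.51 and GATA2 went from 1061 ± 11 to 16972 ± 487 normalized counts (SD, n = 2), while TBX2 fell by 1.24 on the log2 scale. In the knockdown none of 12 was called by edgeR or DESeq2, 8 had an unadjusted p below 0.05 and the median was -0.13. Of 5 Schwann cell markers tested with overexpression, ERBB3 (2.58) and S100B (3.14, named after its value was seen) were called higher and MBP (-1.62) lower. SOX10, which defines Schwann cells, had 0 or 1 counts in every library, and the 5 fixed markers summed to 10.2 TPM or less. In the knockdown none of 5 was called by edgeR or DESeq2, and 1 had an unadjusted p below 0.05.

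**Figure D4:**
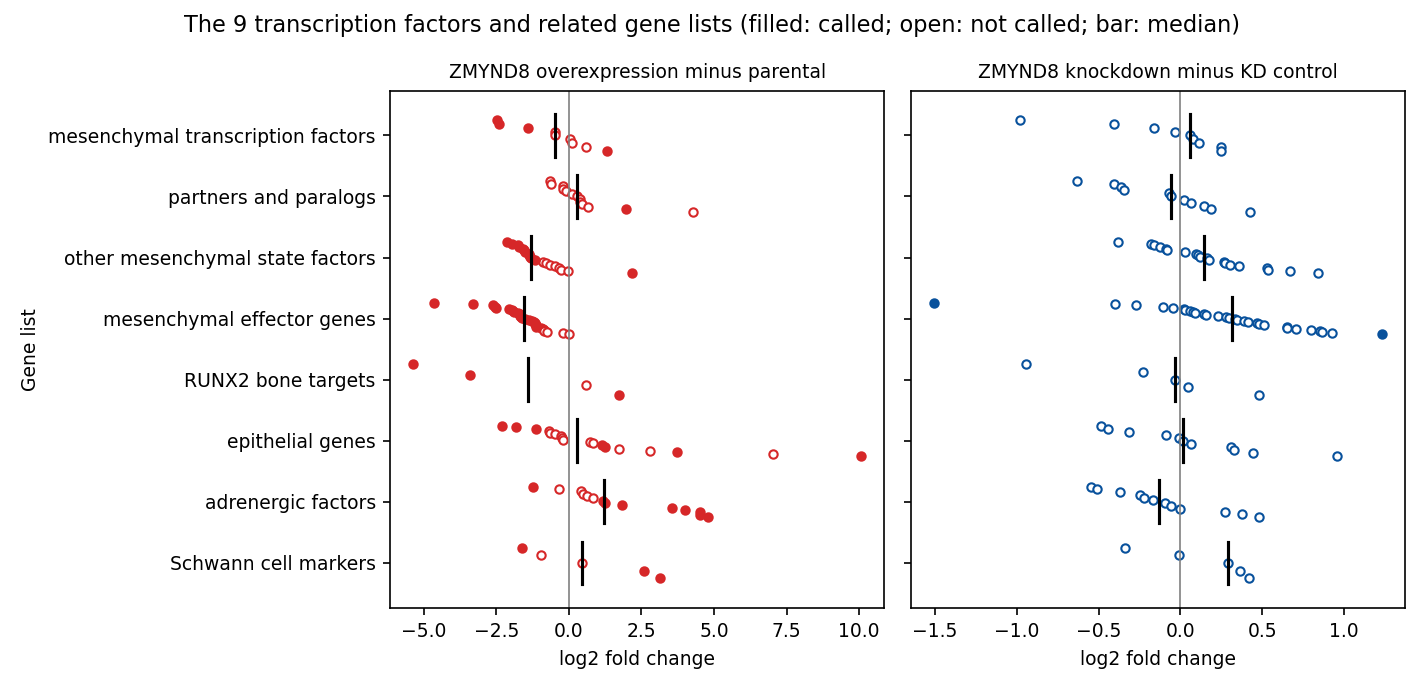
Log2 fold change of every tested gene of the 8 lists with ZMYND8 overexpression (left) and ZMYND8 knockdown (right), on axes of different range. Filled points were called, open points were not, and black bars are medians. With overexpression the medians of the other mesenchymal factors (-1.33) and effector genes (-1.56) lie left of 0 and that of the adrenergic factors (1.21) right of it. The fitted values of CDH3 (10.1) and DSP (7.02), with no parental counts, depend on the prior count.

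Genes near the 9 factors were compared next, where the mean normalized count was above 20 and the distance at most 50 kb. ENSG00000271811, a lncRNA within PRRX1 on the same strand that shares no exon base with it, was counted 207 and 228 times in the parental cells and 36 and 29 times with overexpression. Its log2 fold change was -2.79 (edgeR adjusted p of 4.49e-07) there and 0.11 (edgeR adjusted p of 0.831) with knockdown. HDAC9, a histone deacetylase whose gene lies 18575 bases from TWIST1, moved against TWIST1 with overexpression, from 3018 and 3902 to 1561 and 1283 counts (log2 fold change of -1.32, edgeR adjusted p of 1.06e-08). With knockdown HDAC9 was at 0.58 (edgeR adjusted p of 2.49e-05), not called. In the KD control against the parental cells HDAC9 and TWIST1 were both higher, at 0.97 and 0.96. ENSG00000236536, a lncRNA 2297 bases from TWIST1, moved with TWIST1 under overexpression (1.37, edgeR adjusted p of 2.55e-04). ZEB1-AS1, which overlaps ZEB1 on the other strand, was at 0.53 with overexpression (edgeR adjusted p of 0.00614) and at 0.70 with knockdown (edgeR adjusted p of 0.00158), neither of them called. The other neighbours, ENSG00000232821 at TWIST1, RNF114 at SNAI1, GTDC1 and ENSG00000279166 at ZEB2, SETD4 at RUNX1 and SUPT3H at RUNX2, were called in neither experiment. Their log2 fold changes with overexpression ran from -0.21 for SUPT3H to 0.72 for ENSG00000279166.

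The genes whose pattern over the 8 libraries was most like that of each factor were sought by Pearson's r of log2 CPM among 13550 genes. The 8 points are 4 pairs of replicates, so that any gene with a like difference between groups scores high. RUNX1 was followed most closely by BLZF1, LMO7 and MYO1E (r of 0.999 to 1.00) and RUNX2 by ASCC3, FNDC3B and APBB2 (0.999 to 1.00). PRRX1 was most like TBX2, IGFBP5 and PCDHGA10 (0.998 each) and TWIST1 most like SHF, SLC27A6 and MAP2 (0.997 to 0.998). For ZEB2 these were PLCB4, PCDHB3 and PDK3 (0.997 to 0.999) and for ZEB1 RP9, KIF3A and OGA (0.997 to 0.998). TWIST2 went with ETV4, PEX19 and SPG21 (0.985 to 0.991), SNAI2 with RPL23AP82, VKORC1L1 and PTGES (0.983 to 0.987) and SNAI1 with ERI3, POLR3K and TTC7A (0.950 to 0.954). Between the factors themselves r was 0.99 for RUNX1 and RUNX2, 0.97 for ZEB1 and ZEB2 and 0.83 for PRRX1 and TWIST2. It was -0.72 for TWIST1 with each of TWIST2 and PRRX1, -0.61 for SNAI1 and SNAI2, and -0.92 for PRRX1 and ZEB2. Other pairs of different families also scored high in size, with 0.86 for SNAI2 and RUNX2 and 0.83 for SNAI2 and RUNX1. Negative ones were -0.88 for TWIST2 and ZEB2 and -0.83 for ZEB1 with each of TWIST2 and PRRX1.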

How the data were processed

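Whole-number counts of reads per gene, without normalization, were deposited by the authors for 8 libraries of rRNA-depleted total RNA. The methods name Trim_Galore for trimming, with removal of low-quality reads, then Hisat2 (genome GRCh38) and featureCounts (GENCODE annotation). Strand and multi-mapping settings were not given in the sources used here. The table also gave each gene's exon length and coordinates. Of its 60662 lines, 3 belonging to 1 broken gene were left out. Symbols and gene types came from GENCODE release 44, which matched 60418 identifiers. GC content was computed from the GRCh38 sequence over the deposited exon coordinates, and overlaps came from those coordinates.

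Groups were taken from the sample labels. Replicates differed by more than counting noise (chi-square per degree of freedom of 6.05 to 8.86), so all 8 libraries were kept. Each experiment was fitted on its own over all genes that passed filterByExpr, with TMM scaling and the quasi-likelihood F test of edgeR 4.0.16 (limma 3.58.1, R 4.3.3), two-sided. The KD control against parental contrast and the difference of effects were fitted over the 8 libraries. TPM was computed from counts and lengths of all genes. Intervals are 95% by the t quantile of the fit. With 2 libraries a group, p-values weigh a difference against the spread between these cultures, estimated with information shared over all genes. The sources used here name no separate transductions, so differences between transductions may not be covered. Fits were tested on simulated counts.

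The members and lists were chosen with earlier results of these data known. Of the lists, 1 adrenergic gene is not reported here and was left out of their counts. Named besides the 9 factors and ZMYND8 are, per list, up to 3 called genes with the largest increase and 3 with the largest decrease at a mean above 100 without overlap of replicates, neighbours within 50 kb with a mean above 20, and the 3 genes most like each factor. Alternatives were RLE, DESeq2 1.42.0, no filter, other thresholds, 1 joint fit, the replicate number as a block, a loess trend over length and GC content (span 0.5), leaving out each library, and RPKM for levels.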

Additional observations from a re-analysis of the deposited data

Results flagged for a closer look

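For 6 of the 9 factors, beside 49.0% of 22619 genes, the effect of ZMYND8 overexpression differed from that of ZMYND8 knockdown. This was a test of the difference itself, by edgeR's quasi-likelihood test over the 8 libraries at an adjusted p below 0.05. On the log2 scale, overexpression effect minus knockdown effect, RUNX2 was at -2.47 (SE 0.10, adjusted p of 3.52e-11), with effects of -2.50 and -0.03. RUNX1 was at -1.52 (SE 0.09, adjusted p of 4.06e-09 from edgeR), with effects of -1.40 and 0.11. PRRX1 was at -1.42 (SE 0.08, adjusted p of 1.59e-09 from edgeR), with effects of -2.39 and -0.98 in the same direction. TWIST2 was at -0.72 (SE 0.17, adjusted p of 0.00236 from edgeR), with effects of -0.47 and 0.25. ZEB2 was at 0.50 (SE 0.07, adjusted p of 2.97e-05 from edgeR), with effects of 0.58 and 0.08. TWIST1 was at 1.46 (SE 0.09, adjusted p of 4.77e-09 from edgeR), with effects of 1.31 and -0.16. The experiments had their own control cells, in which these genes started from different levels, and the part of that start in the differences was not tested. ZMYND8 itself changed far more with overexpression (log2 fold change of 5.86) than with knockdown (-0.94), and the part of that in the differences was not tested either.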

How the results depend on the processing

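Directions and calls of the 9 factors were recomputed under each alternative. With no threshold on fold change, overexpression gave 2 factors higher and 5 lower and 11332 genes in all, and knockdown 2 factors lower and 4707 genes. With a mean above 100, 2331 and 174 genes were called. The length and GC trend left 0 factors called higher with overexpression when not recentred, which moved the median of all genes to -0.33 (TWIST1 at 0.78), and TWIST2 was then called lower, at -1.002. In the knockdown 1 factor, PRRX1, was called lower under the trend in each of its 3 forms (-1.001 to -1.003). Signs turned for values near 0. SNAI1 with overexpression was -0.19 (recentred), -0.55 (not recentred, adjusted p of 0.00104 by edgeR) and -0.20 (block with the recentred trend), and ranged from -0.14 to 0.18 without single libraries. ZEB1 with overexpression was -0.066 when not recentred. With knockdown, ZEB2 and the median of the 9 factors were both -0.0067 (recentred), -0.0049 (not recentred) and -0.0066 (block with the recentred trend). Without single libraries ZEB1 with knockdown ranged from -0.00059 to 0.11, that median from -0.00059 to 0.093 and RUNX2 from -0.074 to 0.0058. In the difference of effects ZEB1 was -0.0040 by RLE, -0.0058 by DESeq2 and -0.025 with no filter, and ranged from -0.010 to 0.13 without single libraries, and SNAI2 from -0.23 to 0.034. Without single libraries, 0 to 1 factors were called lower with knockdown. In RPKM the fold between the highest and lowest group was 14.8 for PRRX1, 12.1 for RUNX2, 3.43 for RUNX1, 3.06 for ZEB2, 2.46 for TWIST1, 1.80 for SNAI2, 1.74 for ZEB1 and 1.32 for SNAI1. Chosen after seeing the data, the median of the epithelial genes with overexpression was -0.21 without the genes that have no parental count, beside 0.27 with them. Beyond the construction of the settings, the cause was not tested. Each factor had at least 239 counts in every library, so depth set few limits.

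Same-numbered replicates share a number and nothing else that the labels state, and their deviations correlated at 0.0097 in the overexpression and -0.011 in the knockdown experiment. With the replicate number as a block, 3886 genes were called with overexpression and 393 with knockdown, beside 3876 and 388 without it. The block changed no call of the 9 factors. At the adjusted p alone, with the block, TWIST1 (0.00888), SNAI1 (0.0462) and RUNX1 (0.0476) also passed with knockdown by edgeR.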

Other observations

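Some relatives of the 9 factors and some of their known targets were near the limit of detection and are given as counts, chosen after their values were seen. RUNX3, the third RUNX factor, had 1 and 0 counts in the parental libraries and 16 and 9 with ZMYND8 overexpression, and 1 to 6 in the knockdown experiment. SNAI3 had 23 and 33 counts in the parental libraries, 44 and 34 with overexpression and 2 to 5 in the knockdown experiment. CDH1, or E-cadherin, the classic target of SNAI and ZEB repression, had 0 and 1 counts in the parental libraries, 12 and 8 with overexpression and 0 in the 4 libraries of the knockdown experiment. CDH3, or P-cadherin, had 0 counts in both parental libraries, 131 and 141 with overexpression and 4 to 8 in the knockdown experiment. DSP, or desmoplakin, had 22 and 11 counts with overexpression and 0 in the other 6 libraries. ESRP1, OVOL1, OVOL2 and GRHL2, which control epithelial identity, had at most 3 counts in any library.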
